A study of Sus scrofa with 15 samples.

Results

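The genes described here are 10 transcription factor genes that set or mark stages of natural killer (NK) cell maturation: EOMES, TBX21, ZEB2, ZNF683, PRDM1, TCF7, LEF1, BACH2, RUNX3 and TOX. They were chosen by name and are 10 of the 29886 genes in the count table. All 10 were detected and all 10 passed the filter on low counts, which kept 10939 genes for testing. Transcripts were counted in 15 libraries of sorted pig NK cells, 3 populations from each of the same 5 pigs: conventional CD8αhigh NK cells from peripheral blood, CD8αhigh NK cells from the liver, and CD8αdim liver-resident NK (lrNK) cells. The pigs were 6 months old, with no genetic change or treatment named. Liver cells came out of the portal vein flush, and the 2 liver populations were separated from each other by surface CD8α, so that a CD8A difference between them follows from the sort.

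In mouse and human NK cells, the T-box factors EOMES and T-bet (encoded by TBX21) share a DNA-binding domain and divide the control of development and terminal maturation between them. ZEB2 acts downstream of T-bet, and the zinc finger repressors Hobit (ZNF683) and Blimp-1 (PRDM1) act in tissue residency and in effector differentiation. TCF7, LEF1 and BACH2 mark earlier, less differentiated lymphocytes, RUNX3 takes part in the response to IL-15 and in cytotoxic programmes, and TOX is needed for the early steps of NK lineage development. In human liver, resident NK cells are known for high EOMES with low T-bet, whereas mouse liver-resident cells of the type 1 innate lymphoid group carry T-bet without EOMES.

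The lrNK cells had high EOMES with low TBX21, ZEB2 and ZNF683, and both CD8αhigh populations had the opposite pattern. On the pig assembly Sscrofa11.1, EOMES lies on chromosome 13 (14209590 to 14216184), TBX21 on chromosome 12 (23996415 to 24009353), ZEB2 on chromosome 15 (7498879 to 7631347) and ZNF683 on chromosome 6 (83756865 to 83765905). RUNX3 is on chromosome 6 as well (82531203 to 82595044), and PRDM1 (72309096 to 72335474) and BACH2 (57881203 to 58281740) are both on chromosome 1. TCF7 is on chromosome 2 (136422740 to 136456323), LEF1 on chromosome 8 (113824511 to 113944078) and TOX on chromosome 4 (73810180 to 74115352). Of these 10, EOMES, TBX21, PRDM1, TCF7, RUNX3 and TOX share no bases with another annotated gene.

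Library totals ran from 2003499 to 5680221 counts, with a median of 3686363, and the lrNK libraries (2003499 to 3776823) included the 2 smallest. Levels are given as CPM, the counts of a gene scaled to a common library total with edgeR's TMM factors, in the order of pigs 1 to 5. Summed CPM of 10 NK cell markers ran from 2885 to 5590 over all libraries. CD8A, the gene of the sort marker, averaged 466 ± 149 CPM in blood and 490 ± 138 in liver CD8αhigh cells beside 43.4 ± 10.5 in lrNK cells (SD, n = 5). CD3G, the gene of a CD3 subunit, averaged 865 ± 206 CPM in blood, 825 ± 151 in liver CD8αhigh and 289 ± 201 in lrNK cells (SD, n = 5). It made up most of the summed T cell markers. The other CD3 subunit genes on the list were far lower: CD3D averaged 3.78, 7.38 and 8.43 CPM and CD3E 10.2, 9.03 and 2.12 CPM in the same order. CD4, CD5 and CD28 were at 0 in every library. The sum over 8 B cell markers was 51.9 to 137 CPM in blood, 17.9 to 63.5 in liver CD8αhigh cells and 269 to 781 in lrNK cells, and 6 of the 7 of these markers tested were higher in lrNK cells than in either CD8αhigh population. CD79A, a defining B cell marker, was at 0 in every library, and the part of B cells in the differences below was not tested. Summed hepatocyte markers reached at most 9.74 CPM, and those of monocytes and macrophages at most 25.6 CPM. The liver CD8αhigh library of pig 1 stood apart from the other 4 of its population, and leaving it out changed 2 calls among the 10 genes, those of RUNX3 and TOX between the liver populations. The lrNK library of pig 3 stood apart as well. The genes named next were chosen after their values were seen. CXCR6 was there at 85.1 CPM beside 604 to 834 in the other 4 lrNK libraries. The lectin receptor gene KLRB1 was at 190 beside 1084 to 2309 and KLRK1 at 74.5 beside 329 to 1163. The cytokine receptor gene IL2RB was at 376 beside 2492 to 5878, with the lowest lrNK TBX21 in the same library. PRF1 was higher there than in the other 4, at 567 CPM beside 209 to 304, and so was NKG7, at 1372 beside 733 to 1274. So were TYROBP, at 241 beside 132 to 171, and CXCR3, at 89.4 beside 16.1 to 34.3. Leaving that library out changed no call among the 10 genes.

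Between lrNK and blood NK cells, 6 of the 10 genes differed (60%), beside 18.2% of all 10939 genes tested (edgeR quasi-likelihood test, Benjamini-Hochberg adjusted p under 0.05). EOMES and PRDM1 were higher in lrNK cells, 2 of the 10 beside 8.62% of all genes. TBX21, ZEB2, ZNF683 and RUNX3 were lower, 4 of the 10 beside 9.6%. The ranges of 5 of the 10 did not overlap, beside 13.5% of all genes. The median log2 fold change of the 10 was -0.35, beside 0.01 over all genes tested. Between lrNK and liver CD8αhigh cells, 5 of the 10 differed, beside 14.6% of all genes: EOMES was higher (6.96% of all genes were) and TBX21, ZEB2, ZNF683 and RUNX3 were lower (7.68% were). The ranges of 4 did not overlap, beside 11.9% of all genes, and the median over the 10 was -0.23, beside 0.02 over all genes. Between liver CD8αhigh and blood cells, edgeR called 0 of the 10 and 0.064% of all genes. DESeq2 called 0 of the 10 as well, and its share over all genes is not reported here. By edgeR, 1 of the 10 (PRDM1) had an unadjusted p under 0.05, as had 5.02% of all genes. With the pig as a replicate block, 7 of the 10 differed from blood (19.4% of all genes) and 6 from liver CD8αhigh cells (15.7%), TOX being the gene added to both. The lrNK libraries serve in both of the first 2 comparisons, which are therefore not independent of each other. In bulk libraries, fewer cells expressing a gene and less RNA of it per cell cannot be told apart.

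**Figure D1:**
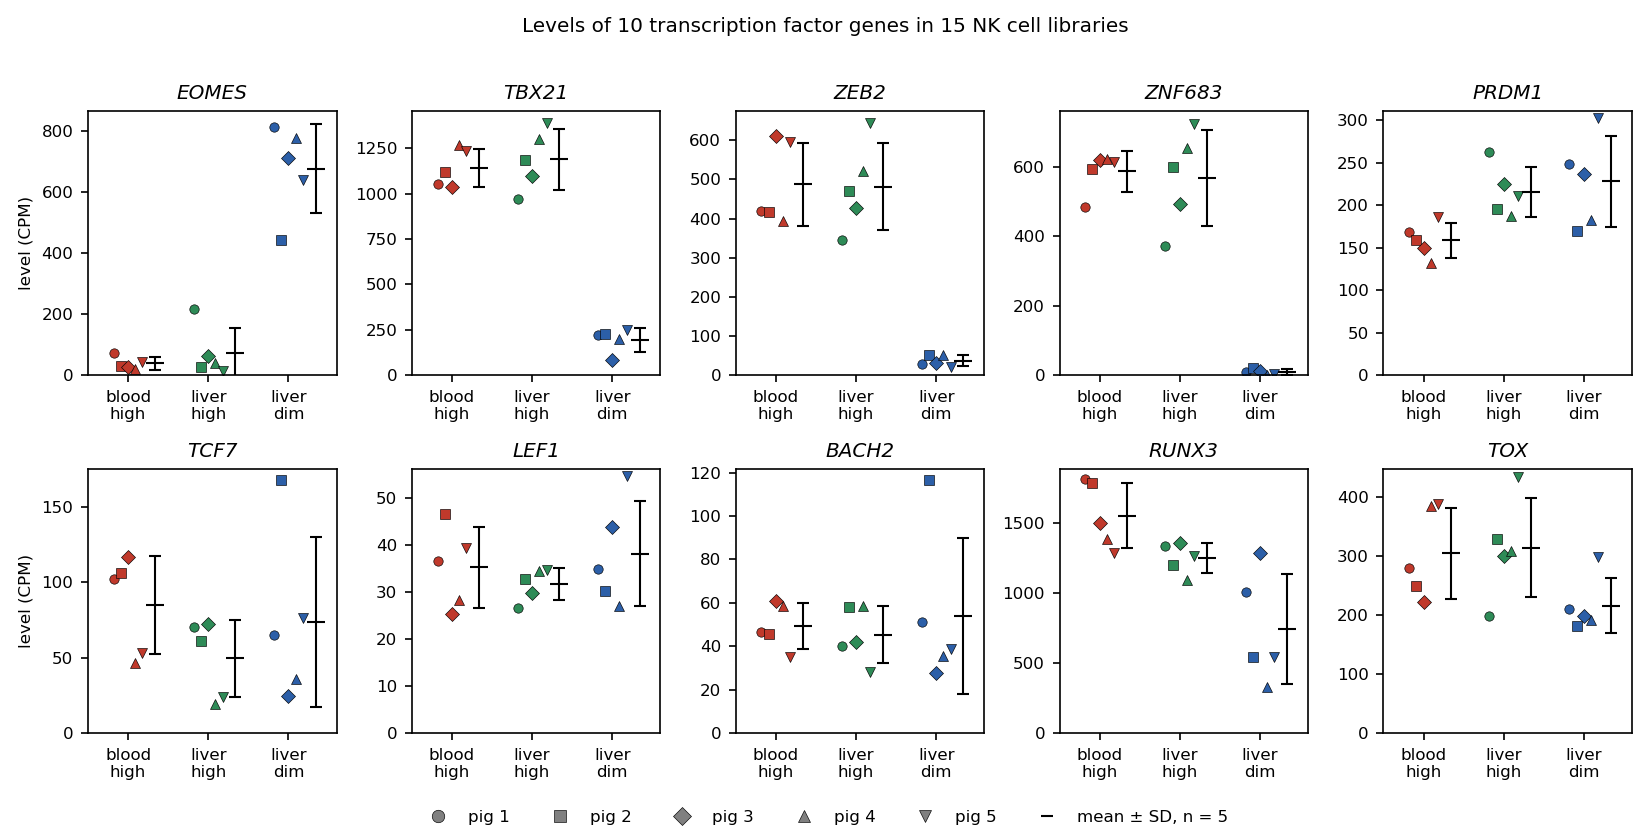
Level of each of the 10 genes (CPM, linear axis from 0) in the 15 libraries, with a symbol for each pig and the mean ± SD of 5 pigs beside each population. EOMES was 442 CPM or more in lrNK cells and 218 CPM or less elsewhere, ZNF683 was 20.2 CPM or less in lrNK cells and 373 CPM or more elsewhere, and the lower SD bar of liver CD8αhigh EOMES is cut at 0.

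EOMES, the T-box factor of NK lineage identity, was at 813, 442, 713, 776 and 641 CPM in lrNK cells. In blood it was at 74.0, 31.0, 28.0, 20.2 and 44.4 CPM, and in liver CD8αhigh cells at 218, 28.0, 62.5, 38.6 and 14.1 CPM. Every lrNK library lay above every CD8αhigh library. The mean rose from 39.5 ± 21.2 CPM in blood to 677 ± 147 CPM in lrNK cells (SD, n = 5), a log2 fold change of 4.09 ± 0.55 (SE; edgeR adjusted p = 1.27e-05), or 17.1-fold with a 95% interval of 7.75 to 37.6. Against liver CD8αhigh cells it was 3.24 ± 0.52 (edgeR adjusted p = 0.000149), or 9.48-fold with an interval of 4.45 to 20.2. The gain over blood was seen in 5 of 5 pigs and ran per pig from 3.45 (pig 1) to 5.22 (pig 4) on the log2 scale.

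The liver CD8αhigh library of pig 1 stood apart in EOMES. Its 218 CPM lay well above the other 4, which reached at most 62.5 CPM, and pig 1 also had the highest EOMES of the 5 pigs in blood and in lrNK cells. With it, liver CD8αhigh EOMES was 0.85 above blood on the log2 scale, with a 95% interval of -0.19 to 1.89. Without that library the difference was -0.15, and the lrNK difference from liver CD8αhigh cells was 4.24 in place of 3.24. In the same library TBX21, ZEB2, ZNF683, LEF1 and TOX were the lowest, and PRDM1 the highest, of the 5 liver CD8αhigh libraries. Other genes examined there after these values were seen lay towards the lrNK levels: NCR1, which encodes the receptor NKp46, was at 167 CPM beside 11.2 to 40.5 in the other 4, the homing receptor gene CXCR6 at 153 CPM beside 5.24 to 46.4, and CD8A at 275 CPM beside 425 to 595. The blood library of the same pig departed the same way in NCR1, at 100.2 CPM beside 26.2 to 49.5 in the other 4, and in CD8A, at 228 CPM beside 456 to 632, but not in CXCR6, which was at 0. Whether lrNK cells in that sort had a part in these values was not tested.

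TBX21, the gene of T-bet, ran opposite to EOMES. Its levels were 1051, 1121, 1038, 1269 and 1234 CPM in blood and 969, 1185, 1095, 1303 and 1388 CPM in liver CD8αhigh cells. In lrNK cells they were 223, 224, 80.9, 201 and 246 CPM, below every CD8αhigh library. The lrNK mean of 195 ± 66 CPM was 5.85-fold below the blood mean of 1143 ± 105 CPM (log2 fold change -2.55 ± 0.22, edgeR adjusted p = 4.06e-08). Against the liver CD8αhigh mean of 1188 ± 166 CPM the log2 fold change was -2.60 ± 0.22 (edgeR adjusted p = 3.26e-08). TBX21 was not lost: the lowest lrNK library still held 166 counts of it. The 2 CD8αhigh populations differed by 0.06 on the log2 scale, with a 95% interval of -0.37 to 0.49.

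The balance of the 2 T-box genes was taken within each library as log2(EOMES CPM + 0.5) minus log2(TBX21 CPM + 0.5). Since the 2 genes may be captured unequally, this balance was compared between libraries only. It was 1.86, 0.98, 3.13, 1.95 and 1.38 in lrNK cells, -3.82, -5.15, -5.19, -5.94 and -4.78 in blood, and -2.15, -5.38, -4.12, -5.06 and -6.57 in liver CD8αhigh cells. The lrNK mean of 1.86 ± 0.81 exceeded that of blood (-4.98 ± 0.77) by 6.84 and that of liver CD8αhigh cells (-4.66 ± 1.65) by 6.52 (SD, n = 5). Both differences had p = 0.00794 in the two-sided exact permutation test, the smallest that 5 against 5 can give. Over pigs, the balance was higher in lrNK cells in 5 of 5 in both comparisons (exact sign-flip p = 0.0625, the smallest that 5 pairs allow), with gains over blood of 5.68 to 8.32. The CD8αhigh populations differed by 0.32 (exact permutation p = 0.738), by -0.02 without pig 1, and by -0.31 without only the liver CD8αhigh library of that pig (exact permutation p = 0.635).

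**Figure D2:**
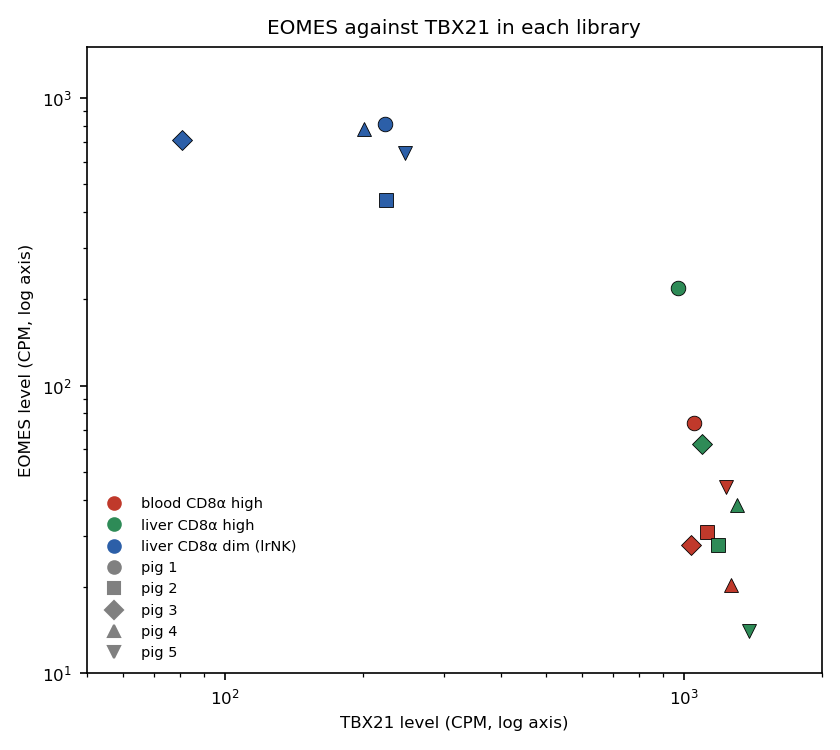
EOMES against TBX21 in each of the 15 libraries (CPM, both axes logarithmic), with colour for population and symbol for pig. The 5 lrNK libraries sit at 80.9 to 246 CPM of TBX21 and 442 CPM or more of EOMES, and the nearest CD8αhigh library is that of pig 1 from liver, at 969 CPM of TBX21 and 218 CPM of EOMES.

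ZEB2, a zinc finger E-box repressor that acts with T-bet in terminal maturation, fell further than TBX21 in lrNK cells. It was at 419, 416, 610, 394 and 595 CPM in blood, at 345, 471, 426, 521 and 643 CPM in liver CD8αhigh cells, and at 29.1, 50.9, 31.2, 50.8 and 20.6 CPM in lrNK cells. The highest lrNK library, at 50.9 CPM, lay far under the lowest CD8αhigh library, at 345 CPM. The log2 fold change was -3.74 ± 0.25 against blood (13.4-fold lower, edgeR adjusted p = 1.48e-09) and -3.72 ± 0.25 against liver CD8αhigh cells (edgeR adjusted p = 1.7e-09). The 2 CD8αhigh populations differed by -0.02, with an interval of -0.48 to 0.45. A neighbouring gene, LOC110257199, shares 15161 bases with ZEB2 and had 38 counts or fewer in any library, beside 999 or more of ZEB2 in the CD8αhigh libraries.

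The paralogue ZEB1, which binds the same E-box sequence, went the other way. ZEB1 rose from 34.4 ± 7.5 CPM in blood to 160 ± 53 CPM in lrNK cells (log2 fold change 2.22 ± 0.35, edgeR adjusted p = 8.64e-05), and it was 2.08 above liver CD8αhigh cells (edgeR adjusted p = 0.000192). It was higher in lrNK cells in 5 of 5 pigs in both comparisons. The lrNK library of pig 3 was the lowest of the 5 at 75.4 CPM, and the liver CD8αhigh library of pig 1 was at 80.2 CPM, so that these groups overlapped.

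ZNF683, the gene of Hobit, showed the largest difference among the 10. It was at 485, 593, 620, 623 and 616 CPM in blood and at 373, 600, 493, 655 and 725 CPM in liver CD8αhigh cells. In lrNK cells it was at 7.89, 20.2, 11.2, 1.69 and 3.40 CPM, which is 6 to 42 counts per library. The lrNK mean of 8.87 ± 7.34 CPM was 71.3-fold below blood (log2 fold change -6.16 ± 0.41, 95% interval -7.01 to -5.30, edgeR adjusted p = 1.29e-09) and 69.1-fold below liver CD8αhigh cells (-6.11 ± 0.41, edgeR adjusted p = 1.56e-09). The lrNK libraries varied more among themselves in this gene than the CD8αhigh libraries, with a coefficient of variation of 82.8% beside 24.4% in liver CD8αhigh cells. CRYBG2 shares 597 bases with ZNF683 and also fell (log2 fold change -5.29, edgeR adjusted p = 2.18e-05), from a highest library of 136 counts. The strand setting of the counting is not given in the sources used here, so reads of the 2 genes cannot be told apart where they overlap, and ZNF683 itself had 1080 counts or more in every CD8αhigh library.

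PRDM1, the gene of Blimp-1, was lowest in blood on average. Blood libraries had 168, 159, 149, 132 and 187 CPM, liver CD8αhigh libraries 262, 195, 224, 187 and 211 CPM, and lrNK libraries 249, 169, 237, 183 and 302 CPM. Against blood, lrNK cells were 0.52 ± 0.17 higher on the log2 scale (1.44-fold, edgeR adjusted p = 0.0346) and higher in 5 of 5 pigs, although the ranges overlapped. This call held under 9 of 15 alternatives, with adjusted p from 0.0155 to 0.106, and was lost when pig 1, 3, 4 or 5 was left out. Liver CD8αhigh cells were 0.44 above blood (95% interval 0.09 to 0.79), in 5 of 5 pigs and without overlap. This difference was not called (edgeR adjusted p = 0.797), and 2.01% of all genes did not overlap in that comparison. The 2 liver populations differed by 0.08, with an interval of -0.27 to 0.43. Since PRDM1 is also a plasma cell factor, the plasma cell markers matter here: their sum was 109 to 540 CPM in lrNK cells, 81.2 to 121 in liver CD8αhigh cells and 81.8 to 110 in blood. The lowest of the lrNK sums, 109 CPM, was in pig 1, where PRDM1 was at 249 CPM, and the highest, 540 CPM, was in pig 3, where it was at 237 CPM. The part of plasma cells in the PRDM1 level was not tested.

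**Figure D3:**
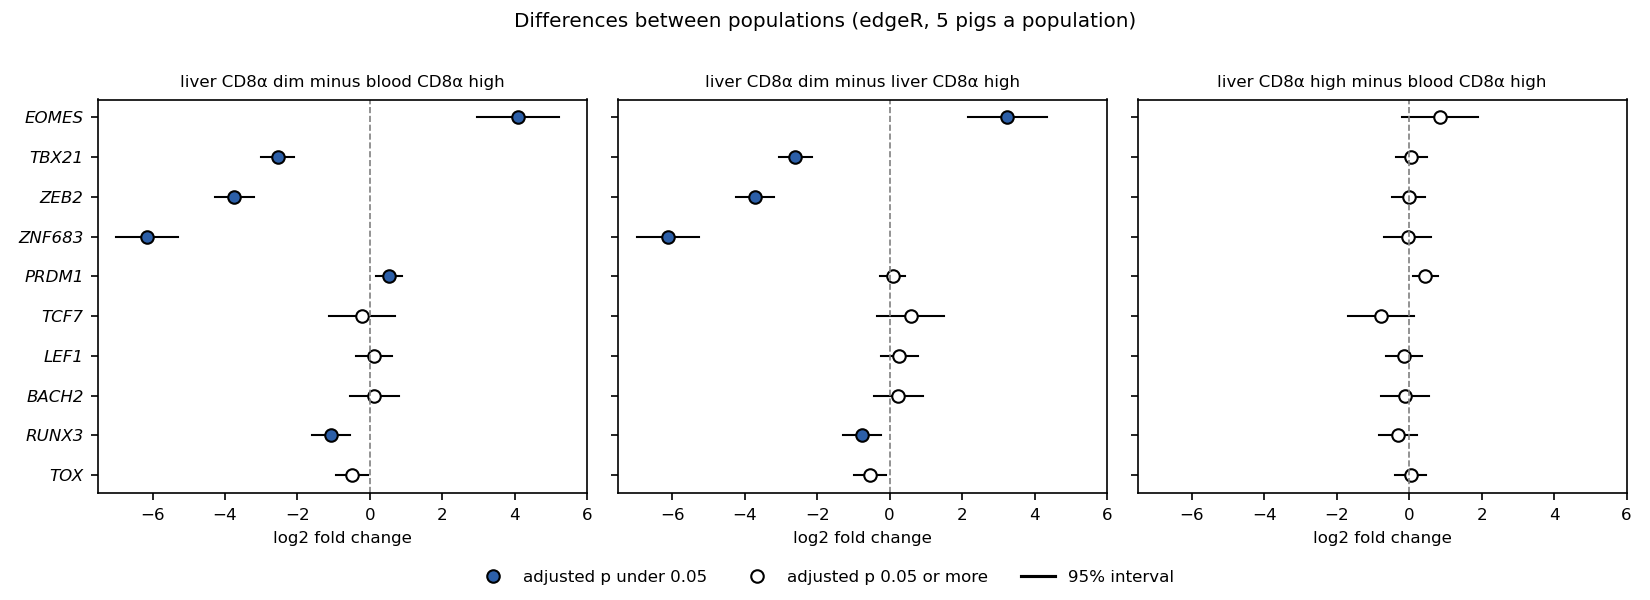
Log2 fold change of the 10 genes in the 3 comparisons with 95% intervals (edgeR, 5 pigs a population), where filled points have an adjusted p under 0.05. EOMES lies at 4.09 and 3.24 and ZNF683 at -6.16 and -6.11 in the lrNK comparisons, while no point in the right panel is filled.

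RUNX3, a Runt-domain factor of cytotoxic lymphocytes, was lower in lrNK cells, but unevenly between pigs. It was at 1815, 1788, 1500, 1391 and 1290 CPM in blood, at 1340, 1204, 1360, 1096 and 1266 CPM in liver CD8αhigh cells, and at 1012, 547, 1286, 327 and 546 CPM in lrNK cells. Pig 3 of the lrNK group lay within the liver CD8αhigh range and just below the lowest blood library, and pig 4 was lowest. Against blood the log2 fold change was -1.07 ± 0.25 (2.10-fold lower, edgeR adjusted p = 0.00479), and the call held under all 15 alternatives tried. Per pig it ran from -0.22 in pig 3 to -2.09 in pig 4. Against liver CD8αhigh cells it was -0.75 ± 0.25 with an edgeR adjusted p of 0.0497, and this call held under only 6 of 15 alternatives (adjusted p 0.00156 to 0.203). It was lost without pig 1, 2, 4 or 5 and, at 0.0829, without the liver CD8αhigh library of pig 1, and adjusted p was 0.00776 without pig 3.

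Its paralogue RUNX2 was higher in lrNK cells: 174 ± 52 CPM against 84.3 ± 27.0 in blood and 80.0 ± 10.4 in liver CD8αhigh cells (log2 fold changes 1.04 and 1.12, edgeR adjusted p = 0.00196 and 0.00125). RUNX1 did not pass the test in either comparison (-0.22 and -0.14, edgeR adjusted p = 0.483 and 0.734). CBFB, whose protein is the common partner of the Runt-domain factors, did not pass it either (-0.03 and -0.25, edgeR adjusted p = 0.949 and 0.442).

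TOX, a high-mobility-group factor of early NK development, was at 280, 250, 222, 385 and 388 CPM in blood, at 199, 329, 301, 310 and 435 CPM in liver CD8αhigh cells, and at 210, 182, 198, 192 and 298 CPM in lrNK cells. The 3 ranges overlapped. Against blood, lrNK cells had a log2 fold change of -0.49 ± 0.21, lower in 5 of 5 pigs, which did not pass the test (edgeR adjusted p = 0.108) and passed it with the pig as a replicate block (adjusted p = 0.0444). Over the 15 alternatives the adjusted p ran from 0.0444 to 0.386. Against liver CD8αhigh cells it was -0.54 ± 0.21, lower in 4 of 5 pigs, with an edgeR adjusted p of 0.0914, which became 0.0338 with the replicate block and 0.0277 without the liver CD8αhigh library of pig 1 (range 0.0277 to 0.282). Between the CD8αhigh populations TOX differed by 0.05 (95% interval -0.38 to 0.47).

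TOX2, the paralogue of TOX, separated the populations where TOX did not. It was at 298, 140, 111, 97.7 and 129 CPM in lrNK cells, at 1.02 to 6.84 CPM in blood and at 2.62 to 37.5 CPM in liver CD8αhigh cells, the highest of the last being pig 1. The log2 fold change was 5.33 ± 0.62 against blood (edgeR adjusted p = 1.96e-06) and 3.61 ± 0.55 against liver CD8αhigh cells (edgeR adjusted p = 7.42e-05). Without the liver CD8αhigh library of pig 1 the latter was 4.47. TOX4 did not pass the test in either comparison (0.14 and 0.13, edgeR adjusted p = 0.686 and 0.733).

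TCF7, LEF1 and BACH2, the factors of earlier lymphocyte stages, passed the test in no comparison. TCF7, the gene of TCF-1, was at 102, 106, 116, 46.3 and 52.9 CPM in blood, at 70.1, 61.2, 72.2, 19.5 and 24.1 CPM in liver CD8αhigh cells, and at 65.2, 168, 24.8, 35.7 and 76.0 CPM in lrNK cells. Pigs 4 and 5 were the lowest of the 5 in both CD8αhigh populations, and liver CD8αhigh cells were lower than blood in 5 of 5 pigs, by 0.54 to 1.22 on the log2 scale. That difference, -0.79 with a 95% interval of -1.70 to 0.13, was not called (edgeR adjusted p = 1, and 0.735 with the replicate block). lrNK cells differed from blood by -0.21 (interval -1.12 to 0.70) and from liver CD8αhigh cells by 0.58 (-0.34 to 1.50).

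LEF1, which shares its DNA-binding domain with TCF-1, varied least of the 3 between pigs in both liver populations, though not in blood. It was at 25.2 to 46.6 CPM in blood, 26.6 to 34.6 CPM in liver CD8αhigh cells and 27.0 to 54.6 CPM in lrNK cells. It differed by 0.12 between lrNK and blood cells (interval -0.39 to 0.62) and by 0.27 between the liver populations (-0.24 to 0.77). BACH2, a repressor that holds back effector differentiation, was at 34.8 to 60.8 CPM in blood and 27.9 to 58.4 CPM in liver CD8αhigh cells. In lrNK cells it was at 51.1, 117, 27.8, 35.7 and 38.9 CPM, so that pig 2 alone exceeded the other populations. The lrNK difference was 0.13 from blood (interval -0.55 to 0.80) and 0.24 from liver CD8αhigh cells (-0.43 to 0.92), and it turned to -0.39 and -0.14 without pig 2.

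Since BACH2, TCF7 and LEF1 are also expressed by B or T cells, marker sums were set beside them. The lrNK library of pig 2, highest in BACH2 and TCF7, had a B cell marker sum of 719 CPM. The highest sum, 781 CPM, was in the lrNK library of pig 4, where BACH2 and TCF7 were both at 35.7 CPM, within the range of the CD8αhigh libraries. Summed T cell markers, nearly all of them CD3G, ran from 637 to 1203 CPM in blood, from 714 to 1076 in liver CD8αhigh cells and from 110 to 593 in lrNK cells, with the lowest in the lrNK library of pig 2. The part of B or T cells in the TCF7, LEF1 and BACH2 levels was not tested. Among co-factors of TCF-1 and LEF1, the co-repressor gene TLE4 was lower in lrNK cells than in blood (-0.93 ± 0.17, edgeR adjusted p = 0.000343) and than in liver CD8αhigh cells (-0.94 ± 0.17, edgeR adjusted p = 0.000375). CTNNB1, the gene of β-catenin, differed only from liver CD8αhigh cells in the test (-0.63, edgeR adjusted p = 0.0189, against -0.30, adjusted p = 0.28, from blood), and the difference between these comparisons was not tested.

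**Figure D4:**
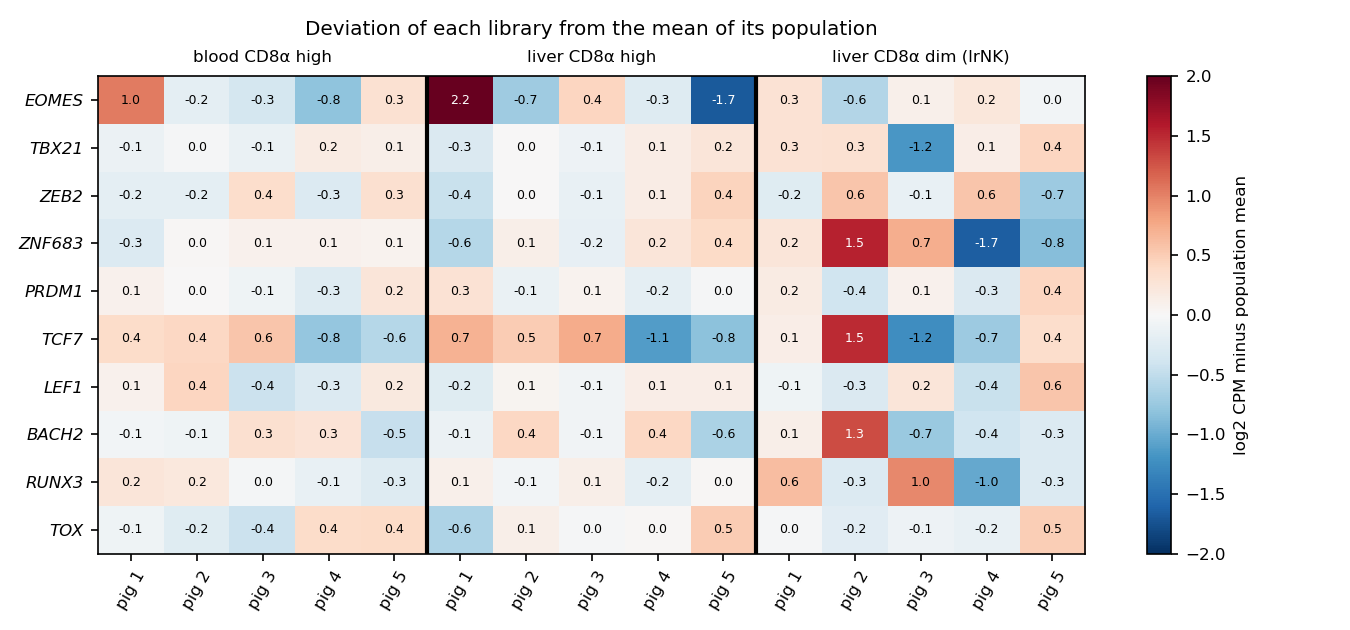
Log2 CPM (prior count 2) of each of the 10 genes in each library minus the mean of its population, with rows for genes and columns for pigs within populations. Of 150 values, 11 lie more than 1 from the mean, 7 of them in lrNK cells, with the largest at 2.22 for EOMES in the liver CD8αhigh library of pig 1.

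Among the 10 genes, most values far from the mean of their population were in lrNK libraries. The matching share over all genes was not counted, so this may not be particular to the 10. The largest such values were of EOMES in liver CD8αhigh cells, at 2.22 (pig 1) and -1.67 (pig 5). On the log2 scale, 11 of the 150 values (10 genes in 15 libraries) lay more than 1 from the mean of their population: 1 of 50 in blood, 3 of 50 in liver CD8αhigh cells and 7 of 50 in lrNK cells. The lrNK values were ZNF683 in pigs 2 (1.54) and 4 (-1.65), TCF7 in pigs 2 (1.49) and 3 (-1.24), BACH2 in pig 2 (1.30), TBX21 in pig 3 (-1.17) and RUNX3 in pig 4 (-1.02). Pigs 2, 3 and 4 account for these 7 values, and the libraries of pigs 2 and 3 were the smallest. The lrNK library of pig 3 was lowest of the 5 in TBX21, TCF7 and BACH2 and highest in RUNX3.

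Around these factors, 20 relatives and partners were listed, of which 18 had a row under that symbol and 11 passed the filter. Between lrNK and blood cells 3 were higher (RUNX2, ZEB1, TOX2) and 1 lower (TLE4), 4 of 11 beside 18.2% of all genes, with a median log2 fold change of -0.03. Of 22 other factors of NK development, 18 were tested, 4 were higher and 3 lower, 7 of 18 beside 18.2% of all genes. ID3, a DNA-binding inhibitor, rose from 3.43 ± 2.89 to 68.7 ± 23.2 CPM (log2 fold change 4.30, edgeR adjusted p = 0.000185), and IRF8 from 58.0 ± 24.1 to 232 ± 56 CPM (2.00, edgeR adjusted p = 2.48e-05). FOXO1 (0.69) and IKZF2 (0.56) rose less, and IKZF2 was not called without the lrNK library of pig 3 (0.40, edgeR adjusted p = 0.083). KLF2, which drives egress receptors, fell by 3.12, from 736 ± 341 to 84.8 ± 75.9 CPM (edgeR adjusted p = 0.000493), followed by BHLHE40 (-1.19) and STAT5B (-0.68). Against liver CD8αhigh cells, 3 were higher and 3 lower, 6 of 18 beside 14.6% of all genes, and IKZF2 did not pass the test (0.35, edgeR adjusted p = 0.255). FOXO1 was not called there without the lrNK library of pig 3 (adjusted p = 0.0702), nor STAT5B without the liver CD8αhigh library of pig 1 (0.0792). The latter library also moved ID3 there, from 3.86 with it to 4.78 without it. With the replicate block ID2, an inhibitor needed for NK development, was also lower there (-0.44, adjusted p = 0.0305, lower in 5 of 5 pigs, against 0.144 without the block). The lists were drawn up with results of these libraries known, so their counts are no independent evidence of direction.

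The effector and maturation genes of the T-bet and ZEB2 programme were mostly lower in lrNK cells. All 14 were tested, and 9 were lower and 2 higher in both comparisons, with medians of -1.83 against blood and -2.19 against liver CD8αhigh cells. Over all genes, 9.6% were lower and 8.62% higher against blood, and 7.68% and 6.96% against liver CD8αhigh cells. ZEB2 itself is one of the 9. The fractalkine receptor gene CX3CR1 fell from 645 ± 277 CPM in blood to 3.05 ± 3.01 CPM (log2 fold change -7.88), the lectin receptor gene KLRG1 from 386 ± 73 to 5.85 ± 3.35 CPM (-6.14) and the granulysin gene GNLY from 1438 ± 369 to 21.5 ± 22.0 CPM (-6.03). S1PR5, an egress receptor, fell by 4.58 and the granzyme gene GZMB by 2.63, followed by SPN (-2.25), FCGR3A (-1.42) and ITGAM (-1.03). Without the lrNK library of pig 3 the CX3CR1 value was -8.51. The perforin gene PRF1 did not pass the test (0.06, edgeR adjusted p = 0.9), NKG7 rose by 0.53 and CXCR3, a T-bet target in other lymphocytes, rose by 2.23. Without the lrNK library of pig 3, NKG7 was not called against blood (edgeR adjusted p = 0.0567) or against liver CD8αhigh cells (0.0641), and without the liver CD8αhigh library of pig 1 it was not called against liver CD8αhigh cells (0.0606). IL2RB was not called against blood (edgeR adjusted p = 0.33) but was without the lrNK library of pig 3 (0.90, edgeR adjusted p = 0.00405).

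Of 14 early-stage genes of the TCF7, LEF1 and BACH2 programme, 10 were tested. Against blood, 2 passed the test upwards in lrNK cells and 0 downwards, beside 8.62% and 9.6% of all genes, with a median of 1.08. GZMK, a granzyme gene of less mature NK cells, rose from 0.38 ± 0.53 to 45.7 ± 24.0 CPM (log2 fold change 6.84, edgeR adjusted p = 3.76e-06), and the chemokine gene XCL1 rose by 1.44. Against liver CD8αhigh cells GZMK (4.33) and GPR183 (1.71) were higher and 0 were lower, beside 6.96% and 7.68% of all genes. XCL1 did not pass the test there (0.27, edgeR adjusted p = 0.743). The interleukin 7 receptor gene IL7R had 5.22 ± 6.08 CPM in lrNK cells beside 5.70 ± 2.48 CPM in blood (edgeR adjusted p = 0.948).

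Residency genes did not all move one way. Of 14 listed, CD69 and NR4A1 did not pass the filter on low counts and were not tested. Of 12 tested, 5 were higher in lrNK cells than in blood (8.62% of all genes were) and 2 lower (9.6%). The 5 were CXCR6 (8.50), NR4A2 (1.97), RGS1 (1.79), XCL1 (1.44) and CRTAM (1.09). ITGA1, whose product CD49a marks resident cells in other species, was lower (-1.77, edgeR adjusted p = 1.76e-05), and so was DUSP6 (-1.18). With the replicate block RGS2 was lower too (-1.35, adjusted p = 0.00119, lower in 5 of 5 pigs, against 0.105 without the block). Against liver CD8αhigh cells 2 were higher (6.96% of all genes were) and 3 lower (7.68%), RGS2 not being called without the lrNK library of pig 3 (edgeR adjusted p = 0.0773). CXCR6 was 3.62 higher there, and 4.70 without the liver CD8αhigh library of pig 1. Liver CD8αhigh cells differed from blood in 2 of the 12, CXCR6 (4.88, edgeR adjusted p = 0.036, and 0.112 with the replicate block) and NR4A2 (2.13, edgeR adjusted p = 0.0103), beside 0.064% of all genes, and in none of the 10 transcription factors. Without the liver CD8αhigh library of pig 1, CXCR6 was no longer called (3.80, edgeR adjusted p = 0.0612) and NR4A2 was (2.08, edgeR adjusted p = 0.0219). With robust dispersion, or at adjusted p under 0.01, neither gene was called. Among 7 egress genes tested, 0 were higher and 5 lower in lrNK cells in both comparisons, beside 9.6% of all genes lower against blood and 7.68% against liver CD8αhigh cells: CX3CR1, ITGA5, S1PR5, KLF2 and ITGB2. S1PR5, CX3CR1, KLF2 and XCL1 are each on 2 of the lists.

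**Figure D5:**
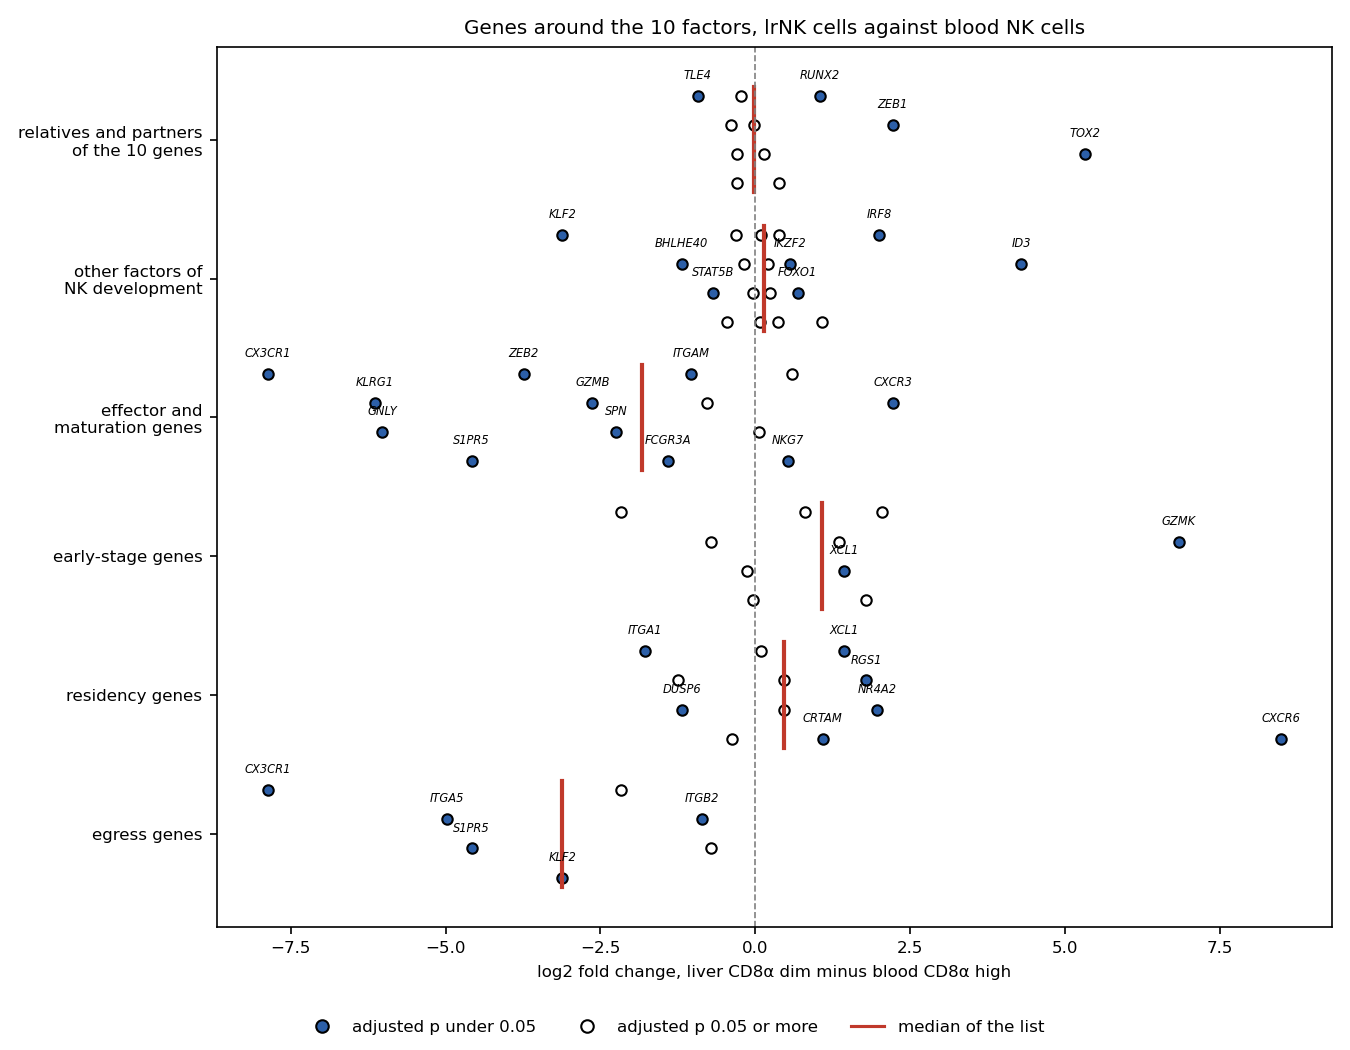
Log2 fold change between lrNK and blood NK cells (horizontal axis) of the tested genes of 6 lists, with filled and named points at an adjusted p under 0.05 and a line at each list's median. The medians lie at -0.03 for relatives and partners, 0.15 for other NK factors, -1.83 for effector genes, 1.08 for early-stage genes, 0.47 for residency genes and -3.12 for egress genes.

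For each of the 6 factors called in a comparison, the genes closest to it in pattern were found among 9574 named genes that passed the filter, by the root mean square (RMS) difference of centred log2 CPM over the 15 libraries. They are given as a description. Closest to EOMES were RAB19 (0.39), COTL1, an actin-binding protein gene (0.43), and SIT1 (0.45). COTL1 rose from 79.4 ± 40.6 CPM in blood and 168 ± 154 in liver CD8αhigh cells to 1844 ± 550 CPM in lrNK cells. Closest to TBX21 were LRRC42 (0.30), the receptor kinase gene GRK5 (0.31) and IRF2BPL (0.34).

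ZEB2 was followed most closely by ARHGAP26 (0.24), the vinculin gene VCL (0.27) and the Ras regulator gene RASA3 (0.28). VCL was at 557 ± 76 CPM in blood, 572 ± 104 in liver CD8αhigh cells and 47.3 ± 21.9 in lrNK cells. Among the genes closest to ZNF683 were KLRG1 (0.43) and the nitric oxide synthase gene NOS2 (0.54), both under 6 CPM on average in lrNK cells. Closest to PRDM1 were BICD2 (0.19), KLHL28 (0.19) and KAT6B (0.21), and closest to RUNX3 were TAB1 (0.22), DUSP28 (0.23) and CHRNB1 (0.24). The median difference over all candidates was 0.63 for PRDM1 and 3.09 for ZNF683, so that these values compare within a factor and not between factors.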

How the data were processed

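RNA of sorted cells (CD3- and CD172a-, split by CD8α) was made into 3′ mRNA libraries with the QuantSeq FWD kit. The deposited table holds raw counts per gene, which the authors made after alignment with HISAT2 to Sscrofa11.1; the counting tool and its strand setting are not given in the sources used here. Groups and pigs came from the sample labels, and 0 columns lacked a sample. Genes were filtered by group (filterByExpr), scaled by TMM and tested with edgeR 4.0.16 (quasi-likelihood, 1 fit of all 15 libraries, Benjamini-Hochberg over all genes tested, R 4.3.3). DESeq2 1.42.0, other filters and scalings, left-out pigs and the pig as a block were alternatives. The labels name the donor, so the libraries are paired by pig: deviations correlated at 0.107 on average within pigs (15 pairs, -0.02 to 0.19) and -0.03 between pigs (60 pairs). No pair of libraries within a population agreed within sampling noise (30 pairs), and pairs across populations were not compared in this way. Low counts limit the precision of low genes. The 10 genes and all lists were chosen with earlier results of these data known. The genes named beside them are up to 6 a list and comparison, those called with the largest changes, and the 3 nearest in pattern, of which 1 is not reported here; list genes named beyond these, including those not called, were chosen after their values were seen. Overlapping genes come from RefSeq. Tests were checked on simulated data.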

Additional observations from a re-analysis of the deposited data

Results flagged for a closer look

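In 5 of the 33 sets of 5 libraries checked, 1 library lay far from the other 4 (Dixon's test at 95%); chance alone flags about 1 in 20 such sets. They were BACH2 in lrNK cells, at 116.6 CPM in pig 2 with the others at 27.8 to 51.1, EOMES in liver CD8αhigh cells, at 217.6 CPM in pig 1 with the others at 14.1 to 62.5, and TBX21 in lrNK cells, at 80.86 CPM in pig 3 with the others at 201 to 246. TOX stood out in lrNK cells, at 298.3 CPM in pig 5 with the others at 182 to 210, and ZNF683 in blood, at 484.5 CPM in pig 1 with the others at 593 to 623. The lowest TBX21 and the highest EOMES and BACH2 did not fall in the same library.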

How the results depend on the processing

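EOMES, TBX21, ZEB2 and ZNF683 kept their direction and their call in both lrNK comparisons under all 15 alternatives. The number of the 10 genes called ran from 5 to 7 against blood and from 4 to 6 against liver CD8αhigh cells. With the pig as a replicate block it was 7 and 6, and TOX was gained in both; the replicate block changed no other call among the 10. For the T-box balance the replicate block gives differences of 6.84 and 6.52, equal to the unpaired ones by construction, and its p cannot go below 0.0625. Leaving out pigs or single libraries turned the sign of 9 gene differences that were not called and of the T-box balance between the CD8αhigh populations. Between lrNK and blood cells, TCF7 ran from -0.65 to 0.15, LEF1 from -0.035 to 0.31 and BACH2 from -0.39 to 0.37. Between the liver populations PRDM1 ran from -0.054 to 0.16 and BACH2 from -0.14 to 0.47. Between liver CD8αhigh and blood cells, EOMES ran from -0.15 to 1.18, ZEB2 from -0.11 to 0.12, ZNF683 from -0.12 to 0.074, TOX from -0.033 to 0.17 and the T-box balance from -0.31 to 0.85, the lowest without the liver CD8αhigh library of pig 1. Leaving out 2 single libraries, for this balance and among the 15 alternatives for each gene, was chosen after seeing that they stood apart. The 2 list genes called between these populations became 1 with a filter that ignores groups and with the replicate block, 0 with robust dispersion or adjusted p under 0.01, and 0 to 2 with a pig or library left out. Depth of 2003499 counts or more leaves ZNF683 in lrNK cells at 6 to 42 counts.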
